A study of Mus musculus with 8 samples.

Results

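The nuclear-encoded genes of oxidative phosphorylation were read across 8 arrays of mouse visual cortex, complex by complex. Probe sets with a single gene symbol were taken where the symbol began with Nduf (complex I), Uqcr (complex III), Cox4 to Cox8 (complex IV) or Atp5 (complex V), or was Sdha, Sdhb, Sdhc or Sdhd (complex II), Cyc1 (complex III) or Cycs. Where a gene had several such probe sets, the one with the highest mean signal stood for it. This gave 73 genes, with 101 probe sets between them, out of 8251 genes that had a probe set with a single symbol. Of these, 29 were subunits of complex I, 4 of complex II, 8 of complex III, 15 of complex IV and 14 of complex V. The others were Cycs, which encodes cytochrome c, and the complex I assembly factors Ndufaf1 and Ndufaf4. Ndufa11, Ndufb4, Ndufs5, Ndufs6 and Cox7c were matched only by probe sets that carry several symbols and were left out, and Uqcrfs1 and Atp5b were not analysed here.

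Oxidative phosphorylation is the last stage of respiration. Complexes I and II pass electrons from NADH and succinate to ubiquinone, complex III passes them on to cytochrome c, complex IV gives them to oxygen, and complex V, the ATP synthase, uses the proton gradient that complexes I, III and IV build to make ATP. Complexes I, III, IV and V hold both nuclear and mitochondrially encoded subunits, whereas every subunit of complex II is nuclear. In cortex most of this ATP is spent by neurons on ion pumping and synaptic signalling, and cytochrome oxidase activity has long been used there as a histological marker of neuronal activity.

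All animals were wild-type C57Bl6 mice that lost 1 eye at postnatal day 20 and were killed 4 days later, at postnatal day 24. The deprived group holds visual cortex contralateral to the removed eye and the non-deprived group holds the ipsilateral cortex, with 4 arrays each, so every sample came from an operated mouse and no unoperated mice were analysed here. The labels speak of 4 mice and the design text of pooling, and it is unclear whether an array stands for 1 animal, so the p-values below rest on the variation among these arrays alone, and part of that may be technical. The arrays measured whole dissected tissue, in which fewer cells of a type and less RNA per cell cannot be told apart. Of 13 neuronal marker genes listed, 11 were measured, and all 11 passed the filter on low values. Snap25, a synaptic vesicle fusion protein, was among them. The median signal of an array lay between 183 and 209, and log2 signals of any 2 arrays correlated at 0.93 to 0.97 over probe sets.

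No oxidative phosphorylation gene passed the test. Values were compared as log2(signal + 15.3) with limma across all 7453 probe sets above the filter, and p-values were adjusted over all of them by the Benjamini-Hochberg method. Of the 73 genes, 67 passed the filter and were tested, and 0 were called at an adjusted p under 0.05. The background was 0% lower and 0% higher among the 7453 probe sets, and the smallest limma adjusted p, over all probe sets and over the members alike, was 0.995. With the replicate number as a block the background was again 0%, and the smallest limma adjusted p was 0.601 among the members and 0.116 over all probe sets. The 6 dim genes were Ndufa12, Ndufc2, Cox5a, Cox7a1, Cox8a and Atp5j2.

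The subunits nevertheless lay mostly to the lower side in the deprived group, by small amounts that depended on the fit and on single arrays. Of the 64 tested subunits of complexes I to V, 54 had a log2 difference (deprived minus non-deprived) below 0, which is 84.4%, beside 45.1% of all probe sets. Under median scaling, which shifted the median difference of all probe sets from 0.02 to -0.05, the shares were 87.5% of subunits and 61.8% of all probe sets. With the actin 3′ to 5′ ratio of each array as a covariate, described further on, the direction turned: 11 of 64 subunits were below 0, and their mean was 0.15 in place of -0.19. Without deprived array 2 the mean was -0.04. Complex I had 23 of 27 subunits below 0, complex II 4 of 4, complex III 7 of 8, complex IV 9 of 12 and complex V 11 of 13. The median difference was -0.23 in complex I, -0.17 in complex II, -0.22 in complex III, -0.18 in complex IV and -0.28 in complex V. With the actin covariate the means of complexes I to V were 0.19, -0.0062, 0.14, 0.10 and 0.19. These counts describe genes that vary together on the same arrays, so they are not independent.

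**Figure D1:**
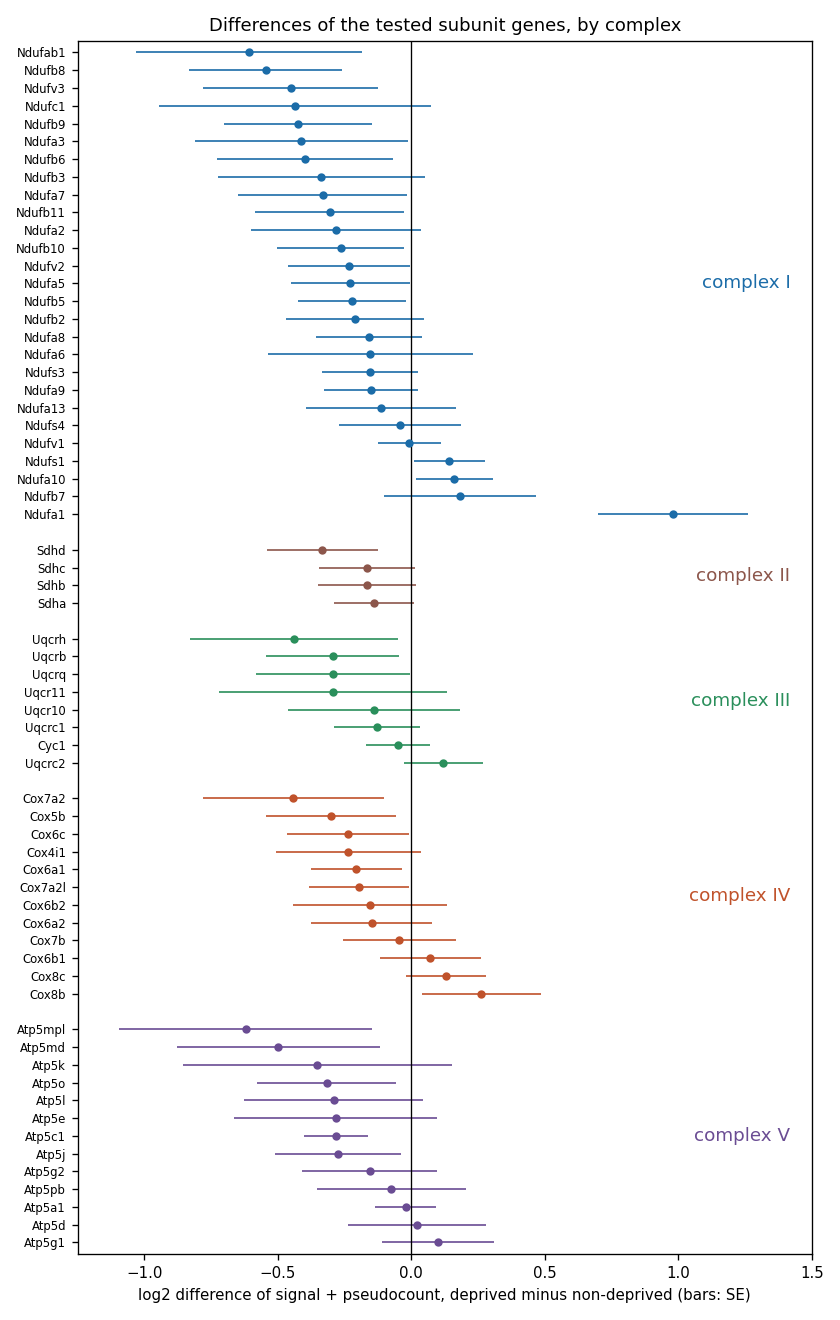
Log2 difference (deprived minus non-deprived) of each tested subunit gene with its standard error, 1 point a gene, grouped by complex. Most points lie below 0, the bars are wide, and 0 of the 64 subunits passed the adjusted test.

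Single genes past an unadjusted p of 0.05 were few. Atp5c1 was the 1 member on the lower side, where the background was 1.22% of all probe sets, and Ndufa1 the 1 member on the higher side, where it was 1.45%. The same pair were the members whose groups did not overlap: the 4 deprived values of Atp5c1 lay below the 4 others (background 0.805%), and those of Ndufa1 lay above them (background 1.23%). With the replicate block, 9 of 67 members were lower at an unadjusted p under 0.05 (background 3.65%) and 1 was higher (background 3.38%). The 9 were Ndufab1, Ndufb8, Ndufv3, Uqcrb, Uqcrh, Cox7a2, Atp5c1, Atp5md and Atp5mpl. Most were lost when the replicate number was a random effect with an estimated correlation of 0.39: 2 members, Ndufb8 and Atp5c1, were then lower (background 3.29%) and Ndufa1 was higher (background 3.89%). Between same-numbered arrays, 8 of the 64 subunits were lower in the deprived array in all 4 pairs (background 6.92%), and 2 were higher in all 4 (background 8.95%).

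Promoters are shown here as background, and no link between them and the shared variation over the arrays was tested. RefSeq windows on GRCm38.p6, from 250 bases before to 50 after the start, were found for 59 of the 73 genes. Both strands were searched for CGCANGCGC, the core of the site of NRF-1, CCGGAAGT, a site of the ETS factor GABP, and AAGATGGC, a site of YY1, all known as regulators of nuclear genes for mitochondria. The NRF-1 core is nearly a palindrome, so matches on both strands can overlap. Printed are 1 member of each complex with a match, 5′ to 3′, with motif matches in capitals. They are Ndufb8 (chr19:44555393-44555692, minus strand, YY1), Sdhd (chr9:50603800-50604099, minus strand, NRF-1), Uqcr11 (chr10:80406772-80407071, minus strand, GABP and then NRF-1), Cox6a1 (chr5:115348909-115349208, minus strand, NRF-1) and Atp5c1 (chr2:10080383-10080682, minus strand, NRF-1). Atp5c1 has a second RefSeq window (chr2:10080461-10080760), for another start, in which none of the motifs matched.
Ndufb8: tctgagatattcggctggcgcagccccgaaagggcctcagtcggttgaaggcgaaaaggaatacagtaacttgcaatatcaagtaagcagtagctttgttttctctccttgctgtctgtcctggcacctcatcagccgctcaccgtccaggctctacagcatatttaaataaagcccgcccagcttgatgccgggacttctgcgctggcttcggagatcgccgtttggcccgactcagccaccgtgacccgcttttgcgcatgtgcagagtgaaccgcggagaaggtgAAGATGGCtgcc
Sdhd: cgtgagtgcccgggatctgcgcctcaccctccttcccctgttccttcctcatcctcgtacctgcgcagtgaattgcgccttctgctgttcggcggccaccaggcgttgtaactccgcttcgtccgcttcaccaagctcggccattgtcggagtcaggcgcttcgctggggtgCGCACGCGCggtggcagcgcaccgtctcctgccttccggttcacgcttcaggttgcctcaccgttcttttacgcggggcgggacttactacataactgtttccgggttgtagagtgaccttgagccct
Uqcr11: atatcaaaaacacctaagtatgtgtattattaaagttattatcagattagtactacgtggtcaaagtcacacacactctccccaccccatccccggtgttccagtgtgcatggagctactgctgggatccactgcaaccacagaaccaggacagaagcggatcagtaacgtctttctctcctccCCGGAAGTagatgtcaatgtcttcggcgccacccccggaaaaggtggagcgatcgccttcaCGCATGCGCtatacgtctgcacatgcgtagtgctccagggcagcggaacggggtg
Cox6a1: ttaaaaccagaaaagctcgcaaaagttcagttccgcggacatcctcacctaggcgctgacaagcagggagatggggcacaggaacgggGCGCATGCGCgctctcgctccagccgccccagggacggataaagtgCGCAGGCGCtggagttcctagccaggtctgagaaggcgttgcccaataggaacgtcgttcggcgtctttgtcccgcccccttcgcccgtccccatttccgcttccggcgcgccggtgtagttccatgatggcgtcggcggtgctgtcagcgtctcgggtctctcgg
Atp5c1: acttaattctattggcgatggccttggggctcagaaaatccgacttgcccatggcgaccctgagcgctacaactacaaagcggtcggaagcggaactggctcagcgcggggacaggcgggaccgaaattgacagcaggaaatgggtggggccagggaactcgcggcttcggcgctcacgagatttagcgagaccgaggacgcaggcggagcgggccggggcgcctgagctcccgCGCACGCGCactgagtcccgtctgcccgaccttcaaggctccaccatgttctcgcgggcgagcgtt
The NRF-1 core was present in 20 of the 59 members (33.9%), against 1693 of 17492 protein-coding genes (9.68%). By complex it was found in 5 of 26 genes of complex I, 2 of 3 of complex II, 3 of 4 of complex III, 1 of 11 of complex IV and 7 of 12 of complex V. The YY1 letters were in 8 of 59 members (13.6%, against 3.57% of protein-coding genes) and the GABP letters in 4 (6.78%, against 5.69%). Any of the motifs was found in 31 of the 59 members (52.5%, against 17.1% of protein-coding genes), and the printed members are among these. A match is only a run of letters, and no binding was measured. The median log2 difference was -0.21 for the 19 tested members with the NRF-1 core and -0.20 for the 34 with a window and no such core.

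Complex I is the largest of the complexes, with a core that carries the flavin and the iron-sulfur clusters and many accessory subunits around it. Its 27 tested subunits averaged a log2 signal of 10.76 ± 0.34 in the non-deprived and 10.57 ± 0.48 in the deprived group (SD, n = 4 each), a difference smaller than either SD. Among accessory subunits, Ndufb8, whose promoter is printed above, had the smallest p on the lower side. Its signals were 3149, 2222, 3476 and 3993 on non-deprived arrays 1 to 4 and 2955, 1526, 1373 and 3415 on deprived arrays 1 to 4. Deprived arrays 2 and 3 were the lowest of the 8, while deprived arrays 1 and 4 lay among the non-deprived values. The log2 difference was -0.55 ± 0.29 (SE), with a limma p of 0.0826 before adjustment and 0.0132 with the block.

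Ndufb9, another accessory subunit of the membrane arm, was also lowest on deprived arrays 2 and 3. Its signals were 2891, 2112, 3401 and 3555 in the non-deprived group against 3155, 1563, 1419 and 3228 in the deprived group, a log2 difference of -0.42 ± 0.28 (SE), with a limma p of 0.153 before adjustment. Ndufab1 is the mitochondrial acyl carrier protein, which serves in fatty acid synthesis as well as in complex I. It had signals of 1944, 794, 2309.5 and 2193 in the non-deprived group against 1746, 592, 679 and 2008 in the deprived group, and its lowest value in each group was on array 2. The groups overlapped, and the log2 difference of -0.61 ± 0.42 (SE) was the lowest in complex I, with a limma p of 0.176 before adjustment and 0.028 with the block. Ndufv3, a small subunit beside the flavoprotein, was lower in all 4 pairs with a log2 difference of -0.45 ± 0.33 (SE) and a limma p of 0.0497 with the block. The other accessory subunits below 0 ranged from -0.44 for Ndufc1 to -0.04 for Ndufs4.

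Ndufa1 stood on the other side. This small membrane-arm subunit, needed for assembly of complex I and encoded on the X chromosome, had dim signals of 89.4, 68.9, 106 and 53.0 on non-deprived arrays 1 to 4 and 120.2, 158, 249 and 163 on deprived arrays 1 to 4. Every deprived value was above every non-deprived value, and the deprived array was higher in all 4 pairs. The log2 difference was 0.98 ± 0.28 (SE), or 1.97-fold on the scale of signal plus 15.3, with a limma p of 0.00451 before adjustment and an adjusted p of 0.995. Its other probe set was below the filter and had a log2 difference of 0.64. The mean signals of the chosen probe set were 79.3 ± 23.2 and 173 ± 54.4 (SD, n = 4 each), close to the filter at a signal of about 110.0. Ndufa10, an accessory subunit of the membrane arm, was also higher in all 4 pairs. It had signals of 515, 528, 663 and 572 in the non-deprived group against 589, 612, 727 and 622 in the deprived group, with overlapping groups and a log2 difference of 0.16 ± 0.14 (SE). Ndufb7, which sits on the intermembrane side, had a log2 difference of 0.18 ± 0.28 (SE), while its other, dim probe set stood at -0.30.

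Of the core subunits of complex I, Ndufv1 was nearly level between the groups. This subunit, which binds NADH and the flavin, had signals of 5468, 5911, 5771 and 6276 in the non-deprived group against 6328, 5934, 5130.0 and 5939 in the deprived group, and a log2 difference of -0.01 ± 0.12 (SE). Ndufs1, which holds several of the iron-sulfur clusters, had 1646, 1809.7, 1634 and 1570.0 in the non-deprived group against 1796, 2062, 1998 and 1536 in the deprived group. Its 2 highest values were those of deprived arrays 2 and 3, the arrays on which Ndufb8 was lowest, and its log2 difference was 0.14 ± 0.13 (SE). Ndufv2, a core subunit with an iron-sulfur cluster, had 3054, 2187, 2654 and 2858 in the non-deprived group against 2973, 1569, 1738 and 3246 in the deprived group, and a log2 difference of -0.23 ± 0.23 (SE). Ndufs3, a core subunit of the peripheral arm, had 2900.1, 2618, 3695 and 3626 in the non-deprived group against 2845, 2318, 2567 and 3915 in the deprived group, and a log2 difference of -0.15 ± 0.18 (SE). The groups overlapped in both, and deprived array 2 was lowest. The assembly factors Ndufaf1 and Ndufaf4, which are not part of the finished complex, had log2 differences of -0.03 ± 0.15 and 0.09 ± 0.17 (SE). The dim Ndufa12 and Ndufc2 were not tested, and had signals of 12.1 to 66.1 and 12.5 to 130.0.

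Complex II, succinate dehydrogenase, also works in the citric acid cycle. All 4 of its genes were below 0, and its mean log2 signal was 11.01 ± 0.13 in the non-deprived and 10.80 ± 0.30 in the deprived group (SD, n = 4 each). Sdha, the flavoprotein that oxidises succinate, had signals of 885, 941, 742 and 978 in the non-deprived group against 919, 712, 710.1 and 875 in the deprived group, a log2 difference of -0.14 ± 0.15 (SE). Sdhb, the iron-sulfur subunit, had 2636, 2517, 3749 and 3535 in the non-deprived group against 2928, 2254, 2382 and 3521 in the deprived group, a log2 difference of -0.17 ± 0.18 (SE). The groups overlapped in both of these catalytic subunits.

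The membrane anchors hold the heme and the ubiquinone site. Sdhc had signals of 2670.1, 2506, 2464 and 2758 in the non-deprived group against 3041, 2259.8, 1591 and 2610.2 in the deprived group, where deprived array 3 was lowest and deprived array 1 highest, and a log2 difference of -0.17 ± 0.18 (SE). Sdhd, whose printed promoter holds an NRF-1 core, had 2126, 2231, 2670.0 and 2934 in the non-deprived group against 2080.5, 1822, 1347 and 2868 in the deprived group. It was lower in the deprived array of all 4 pairs, most of all in pair 3, and the groups overlapped. Its log2 difference came to -0.33 ± 0.21 (SE), with a limma p of 0.136 before adjustment and 0.0587 with the block.

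Complex III had a mean log2 signal of 11.72 ± 0.37 in the non-deprived and 11.53 ± 0.33 in the deprived group (SD, n = 4 each). Its electron carrier Cyc1, cytochrome c1, was almost level, with signals of 7376, 8591, 8374 and 7725 in the non-deprived group against 7745, 7692, 8613 and 6945 in the deprived group and a log2 difference of -0.05 ± 0.12 (SE). A second probe set of Cyc1 stood at -0.32. Uqcrc2, a core protein of the matrix side, was highest on deprived array 2, with 2981, 3189, 3083 and 2691 in the non-deprived group against 3209, 3999, 3362 and 2549 in the deprived group. Its log2 difference was 0.12 ± 0.15 (SE), and it was the 1 complex III gene above 0. Its partner Uqcrc1 stood at -0.13 ± 0.16 (SE).

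The small subunits of complex III varied more between arrays. Uqcrb, which helps to form the ubiquinone pocket, had signals of 1340.2, 1222, 1363 and 2386 in the non-deprived group against 1334, 946, 995 and 1854 in the deprived group, lower in the deprived array of every pair. This came to a log2 difference of -0.29 ± 0.25 (SE), with a limma p of 0.258 before adjustment and 0.0253 with the block. Uqcrh, the hinge protein that docks cytochrome c1 to cytochrome c, had 3084, 1566, 3613 and 4102 in the non-deprived group against 3297, 1041, 1659 and 3677 in the deprived group, and its log2 difference was -0.44 ± 0.39 (SE). Array 2 was lowest in each group. Uqcrq, a small subunit next to cytochrome b, had 4946, 3506, 7918 and 7478 in the non-deprived group against 4970.2, 3088, 4051 and 7299 in the deprived group, and its log2 difference was -0.29 ± 0.29 (SE). Uqcr10 and Uqcr11, the smallest subunits, stood at -0.14 ± 0.32 and -0.29 ± 0.43 (SE).

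Cytochrome c itself, Cycs, carries electrons from complex III to complex IV. It had signals of 799, 792, 761 and 701 on non-deprived arrays 1 to 4 and 636, 583, 554 and 991 on deprived arrays 1 to 4. Deprived arrays 1, 2 and 3 were below all non-deprived arrays and deprived array 4 was above all of them. This gave a log2 difference of -0.18 ± 0.18 (SE), with a limma p of 0.349 before adjustment.

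Complex IV, cytochrome c oxidase, has its catalytic subunits in the mitochondrial genome, so the genes here encode the surrounding subunits. Their mean log2 signal was 10.34 ± 0.23 in the non-deprived and 10.21 ± 0.24 in the deprived group (SD, n = 4 each), the smallest difference of the 5 complexes. Cox7a2, the ubiquitous form of subunit VIIa, had signals of 4956, 3495, 7737 and 7341 on non-deprived arrays 1 to 4 and 4884, 2316, 3362 and 7568 on deprived arrays 1 to 4. Non-deprived arrays 3 and 4 and deprived array 4 were high, and deprived array 2 was lowest. The log2 difference was -0.44 ± 0.34 (SE), with a limma p of 0.217 before adjustment and 0.0388 with the block.

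Cox5b, a zinc-binding subunit on the matrix side, had signals of 3624, 2814, 4563 and 4667 in the non-deprived group against 4110.3, 2239, 2354 and 4338 in the deprived group, and a log2 difference of -0.30 ± 0.24 (SE). Cox6a1, the form of subunit VIa made in brain and liver, had 9767, 9989.9, 12376 and 11176 in the non-deprived group against 10724, 7659.9, 7657 and 12114 in the deprived group, lowest on deprived arrays 2 and 3, and a log2 difference of -0.21 ± 0.17 (SE). Cox4i1, the largest nuclear-encoded subunit and a regulatory one that binds ATP, had 404, 352, 414 and 506 in the non-deprived group against 479.8, 188, 326 and 507 in the deprived group. Its log2 difference was -0.24 ± 0.27 (SE), and its second probe set stood at 0.04, so the sign rests on the probe set. Cox6b1, which helps to join the dimer, had 296, 244, 364 and 277 in the non-deprived group against 286, 328, 384 and 249 in the deprived group and a log2 difference of 0.07 ± 0.19 (SE). Cox6c, Cox7a2l and Cox7b stood at -0.24, -0.20 and -0.05.

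Several complex IV subunits have forms typical of heart and muscle or of testis. Cox6a2, the heart and muscle form of subunit VIa, had signals of 448, 354, 749 and 565 in the non-deprived group against 435, 370.1, 461 and 592 in the deprived group, a log2 difference of -0.15 ± 0.23 (SE). Cox8b, the heart and muscle form of subunit VIII, had 192, 238, 227 and 355 in the non-deprived group against 221, 297, 376 and 324 in the deprived group, a log2 difference of 0.26 ± 0.22 (SE). Both groups overlapped in each. Cox7a1, the heart and muscle form of subunit VIIa, was below the filter, with 4.9, 34.1, 56.9 and 51.2 in the non-deprived group against 25.8, 3.4, 21.6 and 66.4 in the deprived group. The testis forms Cox6b2 and Cox8c stood at -0.15 ± 0.29 and 0.13 ± 0.15 (SE). Cox6b2 had 203, 100.2, 129 and 104 in the non-deprived group against 82.1, 149.9, 147 and 92.7 in the deprived group, and its dim other probe sets stood at 0.34 and 0.52. Cox8c had 1044, 929.7, 1186 and 964 in the non-deprived group against 952, 1172, 1358 and 1052 in the deprived group, with both ranges overlapping. Cox5a and Cox8a, which are general subunits, were below the filter here, with signals of 14.7 to 80.9 and 7.0 to 53.3.

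Complex V, the ATP synthase, had the largest mean difference, with a log2 signal of 10.55 ± 0.36 in the non-deprived and 10.32 ± 0.46 in the deprived group (SD, n = 4 each). Atp5c1 encodes the gamma subunit, the shaft that turns inside the catalytic head. Its signals were 4665, 4682, 4848 and 5045 on non-deprived arrays 1 to 4 and 4027, 3887, 3468 and 4480.3 on deprived arrays 1 to 4. The highest deprived value lay below the lowest non-deprived value. The log2 difference was -0.28 ± 0.12 (SE), or 0.822-fold, with a limma p of 0.0371 before adjustment, 0.0158 with the block, and an adjusted p of 0.995. The name of this chosen probe set has the suffix g. The second probe set of Atp5c1, without such a suffix, overlapped between groups. It stood at -0.35 ± 0.22 (SE), with a limma p of 0.144 before adjustment. Atp5a1, the alpha subunit of the same head, was level, with signals of 7912, 9447, 8744 and 8856 in the non-deprived group against 8076, 9199, 8475 and 8672 in the deprived group and a log2 difference of -0.02 ± 0.11 (SE).

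The small membrane subunits of complex V varied widely between arrays. Atp5md had signals of 6544, 4536, 13351 and 11473 on non-deprived arrays 1 to 4 and 5351, 3270.3, 5767 and 11287 on deprived arrays 1 to 4. It was lower in the deprived array of all 4 pairs, though by little in pair 4, and the log2 difference was -0.50 ± 0.38 (SE), with a limma p of 0.0145 with the block. Atp5mpl had 2120.2, 1702, 4179 and 4846 in the non-deprived group against 2135, 885, 1341 and 5082 in the deprived group. Its log2 difference of -0.62 ± 0.47 (SE) was the lowest of all 64 subunits, with higher deprived values in pairs 1 and 4 and a limma p of 0.0307 with the block. Atp5k, Atp5l and Atp5e, also small subunits, stood at -0.35, -0.29 and -0.28. Atp5j and Atp5o, of the peripheral stalk, stood at -0.27 ± 0.23 and -0.32 ± 0.26 (SE), and Atp5pb, of the same stalk, at -0.07 ± 0.28 (SE). Atp5g1, which encodes the same ring subunit as Atp5g2, had 166, 169.8, 238 and 208 in the non-deprived group against 159, 223, 262 and 201 in the deprived group, a log2 difference of 0.10 ± 0.21 (SE), and Atp5g2 stood at -0.16 ± 0.25 (SE). Atp5d, the delta subunit of the central stalk, had 1094, 545, 1151 and 1162 in the non-deprived group against 703, 1000.2, 891 and 1353 in the deprived group, a log2 difference of 0.02 ± 0.26 (SE), while its 4 other probe sets ranged from -0.32 to -0.02.

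**Figure D2:**
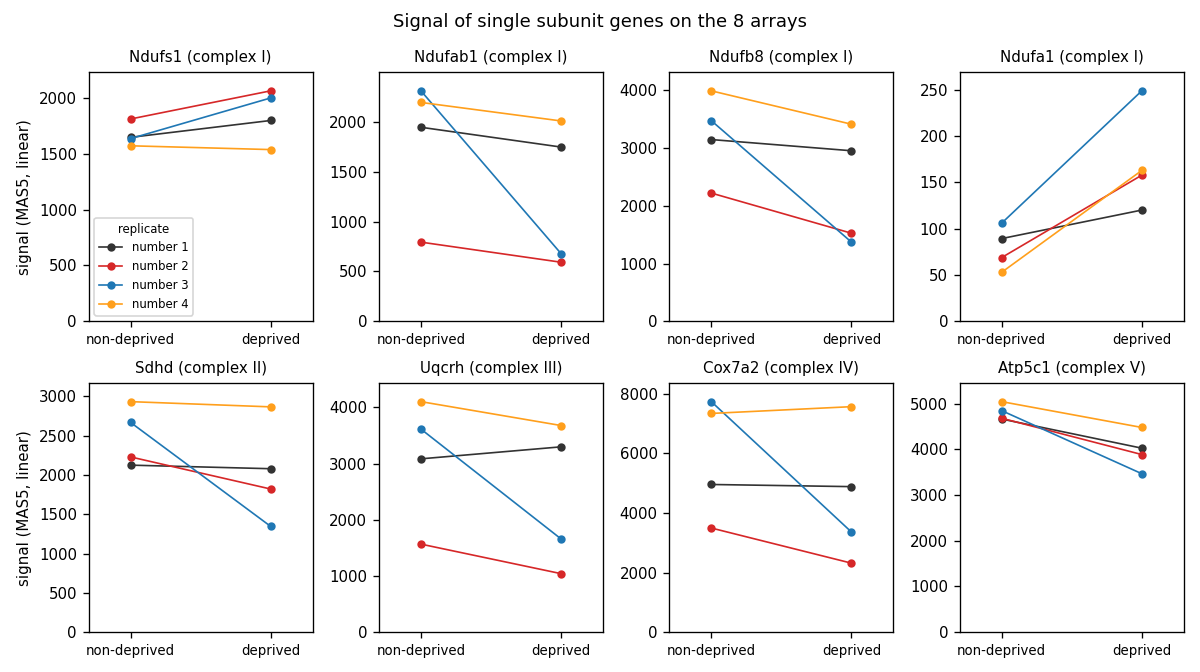
Signal (linear, axis from 0) of single subunit genes on the 8 arrays, with lines joining arrays of the same replicate number. Atp5c1 and Ndufa1 have groups that do not overlap, in opposite directions, and the other genes overlap.

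Of the 73 genes, 21 had several probe sets, and in 9 of these the sign of the difference depended on the probe set. Among those not yet given, a dim probe set stood at 0.35 for Ndufb10, 0.31 for Atp5g2 and 0.12 for Ndufaf1, and the others ranged from -0.35 to 0.44 for Ndufb2 and from 0.11 to 1.05 for Cox6c. For 18 of the 64 subunits the name of the chosen probe set had a suffix (f, g, i, r or s). Among these letters, f and s mark possible cross-hybridisation with related transcripts or pseudogenes. Of these 18, 14 were below 0, and of the 46 without such a suffix, 40 were.

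The means of the complexes followed much the same profile over the arrays, and this profile was wider than the group difference. The mean deviation of the 64 subunits from their 8-array mean was 0.03, -0.32, 0.33 and 0.33 on non-deprived arrays 1 to 4 and 0.07, -0.54, -0.26 and 0.36 on deprived arrays 1 to 4, on the log2 scale. Deprived array 4 was thus the highest of all, and non-deprived array 2 lay below deprived array 3. The mean difference within pairs was 0.04, -0.22, -0.60 and 0.04, so it came from pairs 2 and 3. In pair 3, complexes I to V stood at -0.70, -0.58, -0.54, -0.35 and -0.63. The deprived array was lower for 21, 48, 53 and 39 of the 64 subunits in pairs 1 to 4, beside 50.2%, 46.0%, 44.0% and 49.8% of all probe sets.

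**Figure D3:**
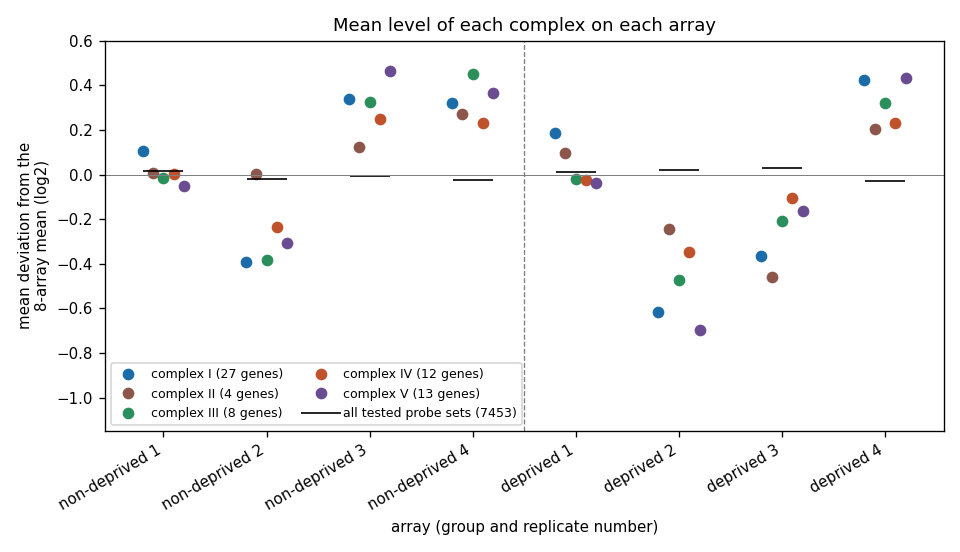
Mean log2 deviation of each complex from its 8-array mean, by array. All 5 complexes are low on deprived arrays 2 and 3 and high on non-deprived arrays 3 and 4 and deprived array 4. Complexes I, III, IV and V are also low on non-deprived array 2, where complex II is near 0. All probe sets together stay within 0.03 of 0.

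Deprived array 2 held the lowest of 8 values for 37 of the 64 subunits (57.8%), against 13.3% of all probe sets. Array 2 lay below array 4 of the same group, in both groups, for 54 of the 64 (84.4%), against 29.7% of all probe sets. The correlation of a subunit with the mean of the other subunits over the 8 arrays had a median of 0.89, and 41 of 64 were above 0.8, against 473 of 7389 other probe sets (6.40%). The points share arrays, so these correlations are given as a description. Cox7a2, Ndufa3 and Ndufb6 followed the common profile most closely, at 0.99, 0.99 and 0.99. Not every subunit followed it, and 10 of 64 had a correlation below 0, against 57.2% of other probe sets. Ndufs1 and Uqcrc2 ran the other way most strongly, at -0.92 and -0.87. The median was 0.62 in complex II. In the 9 core subunits listed below it was 0.40, with 3 of them below 0. Outside the complexes, and chosen after their values were seen, the ribosomal protein gene Rps28 (0.996), Timm8b (0.992), which encodes a small chaperone of mitochondrial import, and Hint1 (0.988) were as close.

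The core subunits varied less between arrays than the others. The ratio of the highest to the lowest signal over 8 arrays had a median of 2.51 for 55 other subunits and 1.38 for 9 core subunits, which are Ndufv1, Ndufv2, Ndufs1, Ndufs3, Sdha, Sdhb, Cyc1, Atp5a1 and Atp5c1. All probe sets had a median of 1.77. The SD between arrays of a group, on the log2 scale, had a median of 0.147 for core subunits, 0.458 for the others and 0.273 for all probe sets. Within complex I it was 0.217 for the 4 core and 0.507 for the 23 other subunits. Cox4i1 and Cox5b, which the rule for naming genes took as core, were counted among the others here, with SDs of 0.468 and 0.432. Atp5a1 had the smallest SD of the 64 (0.0928) and Ndufc1, an accessory subunit of complex I, the largest (0.987). This division was noticed in these data and was not tested.

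**Figure D4:**
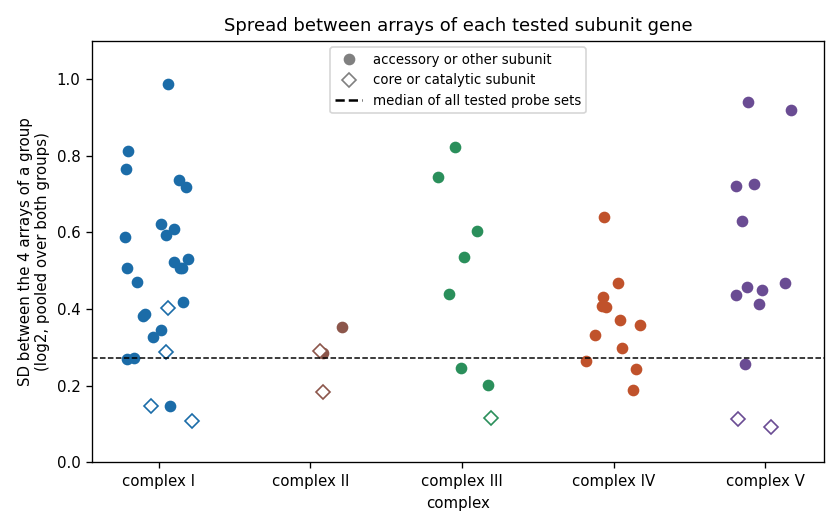
SD between the 4 arrays of a group (log2, pooled over both groups) for each tested subunit, by complex, with core subunits marked apart. The core subunits lie between 0.0928 and 0.401, and the other subunits reach 0.987.

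The control probes for actin read the 3′ and 5′ ends of its transcript, and their ratio ran opposite to the subunit profile on most arrays. The 3′ to 5′ ratio was 1.63, 1.43, 1.25 and 1.26 on non-deprived arrays 1 to 4 and 1.60, 1.91, 1.71 and 1.33 on deprived arrays 1 to 4. The means were 1.39 ± 0.18 and 1.64 ± 0.24 (SD, n = 4 each; exact two-sided permutation p = 0.171, smallest possible 0.0286). The permutation tests here used all 70 assignments of arrays to groups and ignored the pairing of same-numbered arrays. The smallest possible p given holds for these unpaired assignments only, and a permutation within pairs was not run. The 3 arrays with the lowest ratio were the 3 with the highest subunit mean, and deprived array 2 had the highest ratio and the lowest mean. Non-deprived array 2 broke this order. Its ratio of 1.43 lay below those of both arrays numbered 1. Its subunit mean was nonetheless lower than on any array except deprived array 2. With the actin ratio as a covariate, which gave the turned direction above, 49.9% of all probe sets were below 0. The Gapdh ratio was 0.898 ± 0.054 and 0.842 ± 0.034 (SD, n = 4 each; exact two-sided permutation p = 0.143), and as a covariate it left a mean of -0.20 and 53 below 0. The 10th percentile of an array's signal, the level of its dimmest probe sets, was 12.6, 13.2, 13.9 and 14.2 on the non-deprived and 15.0, 16.4, 16.3 and 21.1 on the deprived arrays. These groups did not overlap (13.5 ± 0.72 and 17.2 ± 2.7, SD, n = 4 each; exact two-sided permutation p = 0.0286, the smallest possible), and dim genes such as Ndufa1 were higher in the same group. Its part in their differences was not tested. The part of RNA quality in the subunit differences was not tested beyond these fits.

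Single arrays weighed heavily as well. The mean difference of -0.19 was also closer to 0, at -0.05 without both arrays numbered 3, and at -0.11 without non-deprived array 3 or non-deprived array 4. It was -0.34 without deprived array 4 and -0.32 without non-deprived array 2. The number of subunits below 0 was 43 to 56 over all settings that left out arrays.

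Other genes of energy metabolism had medians closer to 0 than the complexes, and 0 of them were called. Several of these lists also leaned to the lower side, beside 45.1% of all probe sets below 0. The share was 76.9% for glycolysis, 73.3% for other assembly factors and 71.4% for pyruvate entry genes. It was 61.5% for carriers and energy transfer, 53.8% for the citric acid cycle and 44.4% for regulators of mitochondrial genes. Of the citric acid cycle genes, 7 of 13 were below 0 with a median of -0.04. Dlst, the succinyltransferase of the oxoglutarate dehydrogenase complex, was lower in all deprived arrays than in any other (background 0.805% of all probe sets). Its mean signals were 1117 ± 97.3 in the deprived and 1392 ± 73.9 in the non-deprived group (SD, n = 4 each), a log2 difference of -0.32. Dlst was named for its small p, and its limma p was 0.0262 before adjustment and 0.995 after it. Suclg1, a subunit of succinyl-CoA ligase, stood at -0.34. Pyruvate entry genes had 5 of 7 below 0 (median -0.09) and glycolysis genes 10 of 13 (median -0.06), with Ldhb, a lactate dehydrogenase subunit, at -0.57 and Pgk1, a phosphoglycerate kinase, at -0.31. Other assembly factors had 11 of 15 below 0 (median -0.11), with Tmem70, which aids assembly of the ATP synthase, at -0.37, and Foxred1, which aids that of complex I, at 0.25. Carriers and energy transfer genes had 8 of 13 below 0 (median -0.07), with Slc25a4, the ADP/ATP carrier, at -0.23 and Etfa, an electron transfer flavoprotein subunit, at -0.24. Regulators of mitochondrial genes had 4 of 9 below 0 (median 0.01), with the coactivators Ppargc1a at 0.29 and Pprc1 at 0.28.

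Marker lists of cell types gave medians near 0, again with 0 called, and their counts below 0 stand beside 45.1% of all probe sets. Neuron markers had 8 of 11 below 0 (median -0.05), with a summed signal of 53211 to 57332 on the non-deprived and 49155 to 56915 on the deprived arrays. The medians were -0.06 for astrocyte (4 of 7 below 0), -0.05 for oligodendrocyte (6 of 8), 0.08 for microglia (3 of 7), 0.07 for endothelial and mural (5 of 12), 0.11 for thalamus (1 of 5) and -0.04 for blood markers (1 of 2). The summed astrocyte signal was 15655 to 24379 on the non-deprived and 15939 to 24170 on the deprived arrays. Within that list Glul, the glutamine synthetase of astrocytes, had signals of 1190.4, 4592, 1056 and 1102 on non-deprived arrays 1 to 4 and 1425, 5639, 3528 and 1082 on deprived arrays 1 to 4. Gja1, an astrocyte gap junction protein, had 4032, 7483, 4902 and 3865 against 4654, 7552, 6556 and 4653. Both, singled out after their values were seen, were highest on the 3 arrays where the subunit mean was lowest, whereas Aldoc, Aqp4, Gfap, S100b and Slc1a2 did not share that order. The part of cell composition in the subunit differences was not tested.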

How the data were processed

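The deposited table gives a linear intensity, or signal, for each probe set of 8 one-colour arrays of total RNA. Per the submitters' processing notes it came from MAS5. MAS5 sets the perfect-match against the mismatch probes of a probe set and scales arrays to one trimmed mean, which here lay between 500.26 and 500.30. Neither version nor settings were stated in the sources used here. Of 12488 probe sets, 66 controls were removed. Of the rest, 10833 had 1 symbol, 396 several and 1193 none in the platform annotation, and symbols were updated through RefSeq for 10817. Arrays were rescaled to 1 trimmed mean (2% at each end), and values were put on the scale log2(signal + 15.3), where 15.3 is the 10th percentile of all signals. Probe sets with a mean log2 value above the 40th percentile (7453) were fitted with limma 3.58.1 (R 4.3.3; lmFit, eBayes with trend), with Benjamini-Hochberg adjustment at 0.05. The number of arrays limits the precision, and 0 columns of sample values were unused. The fit was tested on simulated data.

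Per array values are given for the members of each complex with the smallest p in each direction (up to 3), those whose groups do not overlap, catalytic or core subunits and tissue isoforms, and for other lists up to 2 members with the smallest p are named. The members and lists were chosen with earlier results of these data known. Same-numbered arrays pair the samples: the titles share replicate numbers, and the correlation of deviations from the group means was 0.16 to 0.42 in the 4 same-numbered pairs, against -0.27 to 0.12 in other pairs. Alternatives were other pseudocounts, filters and scalings, the replicate block, array weights, actin or Gapdh ratio as a covariate, no trend, the mean of a gene's probe sets and leaving out arrays. Promoters were searched in Python 3.11.15, and plots were made with matplotlib 3.10.9.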

Additional observations from a re-analysis of the deposited data

Results flagged for a closer look

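In 3 of 80 groups of 4 log2 values examined, 1 array stood far from the others, its gap to the nearest array divided by the range of the group being above Dixon's critical value for 4 values. Chance gives about 1 in 20 groups, or 4 here. For Atp5d, the delta subunit of ATP synthase, the gap of non-deprived array 2 below the others took 0.920 of the range. Ndufab1, the acyl carrier protein of complex I, had the same array low, with a share of 0.838. In Uqcrb of complex III it was non-deprived array 4 that stood above the others, with a share of 0.837.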

How the results depend on the processing

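Under every alternative 0 probe sets and 0 members were called. Same-numbered arrays were paired by the replicate block: it left 0 calls, the mean difference at -0.19 and 54 subunits below 0, and changed no other call, while members at an unadjusted limma p under 0.05 went from 2 to 10. With the replicate number as a random effect that count was 3. It was 8 with array weights, 1 with the filter at the 60th percentile, cyclic loess scaling, no trend or either control ratio as a covariate, 0 with the mean of all probe sets of a gene, and 1 to 12 when arrays were left out (12 without deprived array 4). With the actin ratio as a covariate 11 subunits were below 0, and the means of complexes I, III, IV and V turned to 0.19, 0.14, 0.10 and 0.19, with complex II at -0.0062 and all 64 at 0.15. Under the other alternatives with all 8 arrays, complex means moved by less than the spread between arrays and the number of subunits below 0 by less than 1.5 times. That spread was itself wider than the mean difference of each complex, so this limit is a loose one. The mean of all 64 was -0.31 with array weights, -0.26 with median scaling and -0.18 with quantile scaling. Leaving out arrays gave 43 to 56 subunits below 0 and means of -0.36 to -0.01 in complex I, -0.30 to -0.08 in II, -0.35 to -0.06 in III, -0.22 to -0.03 in IV and -0.42 to -0.04 in V.

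Of 33 genes given array by array and recomputed, these changed sign. With the actin ratio: Atp5md 0.21, Atp5mpl 0.35, Cox4i1 0.18, Cox5b 0.0856, Cox6a1 0.0594, Cox6a2 0.17, Cox6b1 -0.0169, Cox7a1 0.70, Cox7a2 0.20, Cycs 0.00581, Ndufab1 0.00691, Ndufv1 0.0385, Sdhb 0.14, Uqcrb 0.0861, Uqcrc2 -0.0676, Uqcrh 0.18 and Uqcrq 0.22. With the Gapdh ratio: Atp5a1 0.0146, Atp5d -0.29, Atp5g1 -0.0570, Cox6b1 -0.16, Cox7a1 0.16, Cox8c -0.0139, Ndufv1 0.0241 and Sdha 0.00361. With cyclic loess scaling: Atp5a1 0.0198 and Ndufv1 0.0282, with quantile scaling Ndufv1 0.0454, with median scaling Atp5d -0.0555 and Cox6b1 -0.00454, with array weights Atp5d -0.11, and with the mean of probe sets Atp5d -0.15 and Cox6b2 0.24. With arrays left out, the range was -0.0678 to 0.0173 for Atp5a1, -0.26 to 0.24 for Atp5d, -0.00393 to 0.22 for Atp5g1, -0.41 to 0.0470 for Cox4i1, -0.32 to 0.0324 for Cox6a2, -0.0403 to 0.17 for Cox6b1, -0.38 to 0.18 for Cox6b2, -0.69 to 0.12 for Cox7a1, -0.10 to 0.000694 for Cyc1, -0.0811 to 0.0519 for Ndufv1 and -0.30 to 0.0116 for Sdhc. The cause was not tested. With 4 arrays a group, the mean difference of each complex was within the spread between arrays. Atp5c1 and Ndufa1 had groups that did not overlap, at a limma adjusted p of 0.995, and Ndufa1 lay close to the filter on low values.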
